A study of Homo sapiens with 4 samples.

Results

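The comparison described here sets HCC1143 cells kept for 72 h in 1 nM paclitaxel against HCC1143 cells kept for 72 h in DMSO, the solvent of the drug. It uses every cell of these 2 libraries with under 20% of its unique molecular identifiers (UMIs, 1 per captured RNA molecule) from mitochondrially encoded (MT-) genes. That left 783 DMSO cells and 520 paclitaxel cells, together 1303 of the 3180 cells of the whole series. HCC1143 is an established human cell line from a triple-negative breast carcinoma, grown in RPMI1640 with serum. Cells were seeded in 6-well plates, attached for 24 h, and were then given drug or solvent and captured with the 10x Chromium system, which reads poly(A) RNA. Each group is 1 library of 1 cell line, so no difference below has a replicate check, and no test across samples can be made. The DMSO and paclitaxel libraries taken at 24 h appear beside the 72 h values as levels.

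Paclitaxel is a taxane that binds the beta subunit of tubulin in assembled microtubules and slows their disassembly, which disturbs the mitotic spindle. Cells that leave a disturbed mitosis can carry misplaced chromosomes and micronuclei, and cytosolic DNA or RNA sensors, NF-kB and stress kinases can then switch on interferon-type and inflammatory genes in tumour cells. Basal-type breast cancer cells such as HCC1143 express keratins of both the basal and the luminal layer of the breast epithelium.

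Levels are UMIs summed over the cells of a library, given per 1000000 UMIs from genes other than ribosomal protein (RPL and RPS) genes, written as CPM. RPL and RPS genes were left out of the total because their median share of the UMIs per cell was 40.6% with DMSO and 27.5% with paclitaxel at 72 h. A gene was tested if its mean over both 72 h libraries was at least 10 CPM, and is called higher or lower if the levels differed at least 1.5-fold with a 95% exact (Clopper-Pearson) interval of the ratio that leaves out 1. These intervals cover counting error only. A gene under 10 CPM in 1 of the libraries can be tested only through its level in the other, which fixes its direction. Intervals of shares of cells are exact binomial ones over the cells of 1 library, which are not replicates of a treatment. Log2 ratios are paclitaxel over DMSO at 72 h unless another pair is named. Where 4 levels are given they are in the order 24 h DMSO, 24 h paclitaxel, 72 h DMSO, 72 h paclitaxel.

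The kept cells had medians of 54864 UMIs (DMSO) and 57545 UMIs (paclitaxel) at 72 h, and the libraries shared 0 barcodes. Epithelial markers were present throughout: the 9 luminal markers summed to 4255 and 5854 CPM and the 9 basal markers to 1765 and 3971 CPM in DMSO and paclitaxel. Not every basal marker was higher: ITGB4 was at 266 and 135 CPM, ITGA6 at 76.8 and 56.3 CPM and CDH3 at 78.0 and 75.6 CPM. The luminal markers were KRT8, KRT18, KRT19, KRT7, EPCAM, CDH1, MUC1, CLDN4 and ELF3. Of these MUC1 was at 169 and 125 CPM, CDH1 at 114 and 102 CPM and KRT19 at 1031 and 1036 CPM. The basal marker TP63 was at 0.31 and 0.40 CPM, the estrogen receptor gene ESR1 at 0.72 and 0.92 CPM, and the progesterone receptor gene PGR was in neither table. The tables list only genes seen in a minimum number of cells, which was 8 in DMSO and 6 in paclitaxel at 72 h. Of 10 leukocyte markers 5 were in a 72 h table, together at no more than 35.0 CPM, of which CD68, a lysosomal gene, made up 9.24 (DMSO) and 27.4 CPM (paclitaxel). Cells with under 2% MT- UMIs were 11 of 783 in DMSO and 51 of 520 in paclitaxel. Their part in the results was not tested beyond the values without them, which are given where they matter.

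Of 9678 genes tested, 1163 (12.0%) were higher and 755 (7.80%) were lower with paclitaxel at 72 h, with a median log2 ratio of 0.01. This split depends on the scaling. With the total of all genes it was 2091 higher (25.2% of 8306) to 177 lower (2.13%) around a median of 0.28. With TMM factors it was 752 higher (9.07% of 8290) to 887 lower (10.7%) around a median of -0.07. The DMSO libraries of 72 h and 24 h, which differ in time in culture, also differed by many genes. Of 9375 genes tested between them, 1309 (14.0%) were higher and 877 (9.35%) lower at 72 h. For many genes the level in DMSO at 24 h is therefore given too, and against it several genes that were low with paclitaxel were high. Between paclitaxel at 72 h and DMSO at 24 h 1691 of 9475 genes tested (17.8%) were higher and 1020 (10.8%) lower. List counts against DMSO at 24 h are to be read beside these shares.

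**Figure D1:**
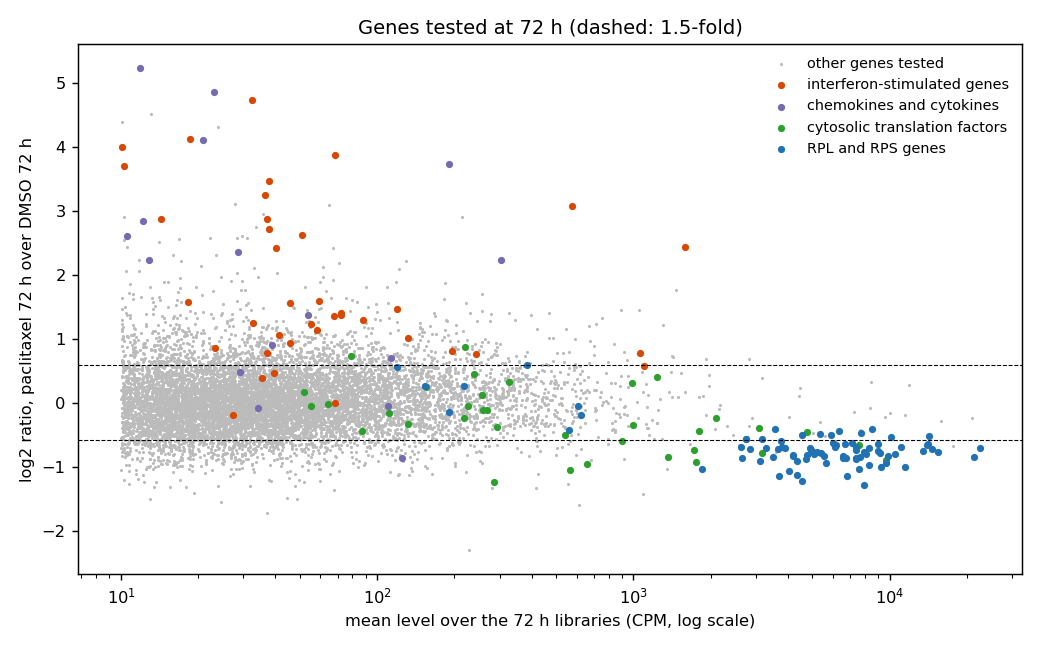
Log2 ratio of paclitaxel 72 h over DMSO 72 h (vertical axis) against the mean level over both libraries in CPM (horizontal axis, log scale), 1 point per gene tested, with dashed lines at 1.5-fold. Interferon-stimulated genes reach a log2 ratio of 4.73 and chemokines 5.23, while the abundant RPL and RPS genes lie at a median of -0.74.

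The sequences that follow show promoter stretches of some genes named below, in windows set around a match, so that the letters can be read beside their levels. They are from RefSeq on GRCh38.p14, read 5′ to 3′ on the strand of the gene. In the first 5, capitals mark the interferon-stimulated response element, searched on both strands as GAAA, any 2 bases and GAAA, and in B2M and CXCL10 also the NF-kB site, searched as GGANTTTCC on both strands. The matches overlap by a few bases in ISG15 and B2M.
IFI6 (chr1:27672268-27672357, minus strand): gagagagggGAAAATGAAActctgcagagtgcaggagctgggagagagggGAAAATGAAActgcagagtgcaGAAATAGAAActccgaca
ISG15 (chr1:1013377-1013406, plus strand): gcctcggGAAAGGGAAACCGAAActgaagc
IFIT3 (chr10:89327832-89327891, plus strand): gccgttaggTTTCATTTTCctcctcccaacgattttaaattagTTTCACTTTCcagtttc
B2M (chr15:44711367-44711406, plus strand): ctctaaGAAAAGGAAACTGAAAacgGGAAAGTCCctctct
CXCL10 (chr4:76023658-76023727, minus strand): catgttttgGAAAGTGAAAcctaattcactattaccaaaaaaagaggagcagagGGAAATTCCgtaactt

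IFI6 held 3 such elements in its window and IFIT3 held 2, both of the latter on the opposite strand. In CXCL8 and CXCL1 the capitals mark the NF-kB site, and in CXCL8 also an AP-1 site (TGANTCA) and a TATA box (TATAAA). In HSPA5 they mark the ER stress response element, searched on both strands as CCAAT, any 9 bases and CCACG.
CXCL8 (chr4:73740424-73740548, plus strand): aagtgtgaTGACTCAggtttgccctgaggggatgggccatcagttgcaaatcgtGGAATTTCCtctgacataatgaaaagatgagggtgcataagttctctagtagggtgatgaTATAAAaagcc
CXCL1 (chr4:73869303-73869372, plus strand): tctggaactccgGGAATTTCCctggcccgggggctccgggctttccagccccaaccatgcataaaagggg
HSPA5 (chr9:125241384-125241418, minus strand): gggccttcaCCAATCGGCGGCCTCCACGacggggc
A match is a description of these letters and not a bound site. Not every gene with a large log2 ratio held one. The promoters of CCL20 (5.23) and PSMB9 (2.10) held neither the interferon-stimulated response element nor the NF-kB site.

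Interferon-stimulated genes were the list with the most members higher: 33 of 38 tested were called higher and 0 lower, with a median log2 ratio of 1.38 against 0.01 for all genes tested. Some scarce members passed the minimum only through their paclitaxel level, and at a mean of at least 50 CPM 16 of 18 were higher (median 1.33). The list summed to 2074, 4003, 3410 and 9169 CPM over the 4 libraries. IFI6, which encodes an interferon-induced mitochondrial protein that opposes cell death, was at 51.4 and 297 CPM in DMSO and paclitaxel at 24 h and at 123 and 1031 CPM at 72 h, 8.38-fold higher (95% interval 8.10 to 8.68). ISG15, a ubiquitin-like modifier that is joined to other proteins, was at 266, 862, 497 and 2678 CPM in the same order, 5.39-fold higher at 72 h. IFI27, another interferon-induced mitochondrial protein gene, was at 5.00, 22.4, 8.69 and 128 CPM, with a log2 ratio of 3.88 (3.69 to 4.07). In each of these 3 genes the paclitaxel library was above the DMSO library of its time, and the paclitaxel 72 h library was the highest of the 4.

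Members of the list cover sensing, signalling and effector roles. Among sensors of foreign RNA, IFIH1 (MDA5) was at 5.31, 15.5, 12.8 and 68.0 CPM over the 4 libraries and DDX58 (RIG-I) at 18.1, 28.2, 27.4 and 47.0 CPM. Of the signalling members, the signal transducer STAT2 was at 68.1 and 68.3 CPM at 72 h and the DNA-binding factor IRF9 at 29.1 and 25.5 CPM. Effectors that act on viral RNA or its translation had the largest ratios. IFIT2 had a log2 ratio of 4.73, from 2.35 to 62.3 CPM, and IFIT3 one of 4.13, from 2.01 to 35.2 CPM. OAS2, which makes a messenger for RNA decay, was higher as well (95% interval of the log2 ratio 3.50 to 4.54). The membrane proteins IFITM1 (14.2 and 87.4 CPM) and BST2 (63.7 and 175 CPM), which hinder virus entry and release, were higher too. The 5 members that were not called were LY6E, IRF1, HERC6, STAT2 and IRF9, with log2 ratios from -0.19 to 0.58.

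Genes of MHC class I presentation, which show peptides to cytotoxic T cells, were higher in 12 of 16 cases and lower in 0, with a median of 0.99. B2M, the invariant light chain, was at 388, 672, 561 and 1533 CPM over the 4 libraries. That is a 2.74-fold difference at 72 h (2.69 to 2.79). Among the heavy chains HLA-B was at 606, 1038, 785 and 1823 CPM and HLA-C at 299, 529, 404 and 931 CPM. These genes are near-identical to each other, so how reads were split between them is uncertain. PSMB9, an immunoproteasome subunit, had a log2 ratio of 2.10 and the peptide transporter subunit TAP1 one of 1.74. These 2 genes overlap in the annotation (chromosome 6, 32844136 to 32859585 on the plus strand and 32845209 to 32853978 on the minus strand), and the strand used in counting is not stated in the sources used here. TAP2 (0.48), PSME1 (0.38), CALR (0.31) and TAPBP (0.04) were not called.

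The response element was frequent in these lists. Of the interferon-stimulated genes with a promoter in RefSeq 19 of 31 held it, as did 8 of 13 MHC class I genes, beside 2.58% of all 7767 tested genes with a promoter and 3.65% of all RefSeq promoters of the same length. Read the other way, 200 tested genes held the element, and 25.5% of them were higher, beside 11.5% of all genes with a promoter. Their median log2 ratio was 0.15, so most genes that hold the letters differed little. A raised share was not particular to this element. Of 389 tested genes with a TATA box 22.6% were higher, and of 317 with an AP-1 site 16.4%. For an E2F site (TTTNNCGC) the share was 11.1%, and for the cell cycle homology region (TTTGAA) 11.0%.

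**Figure D2:**
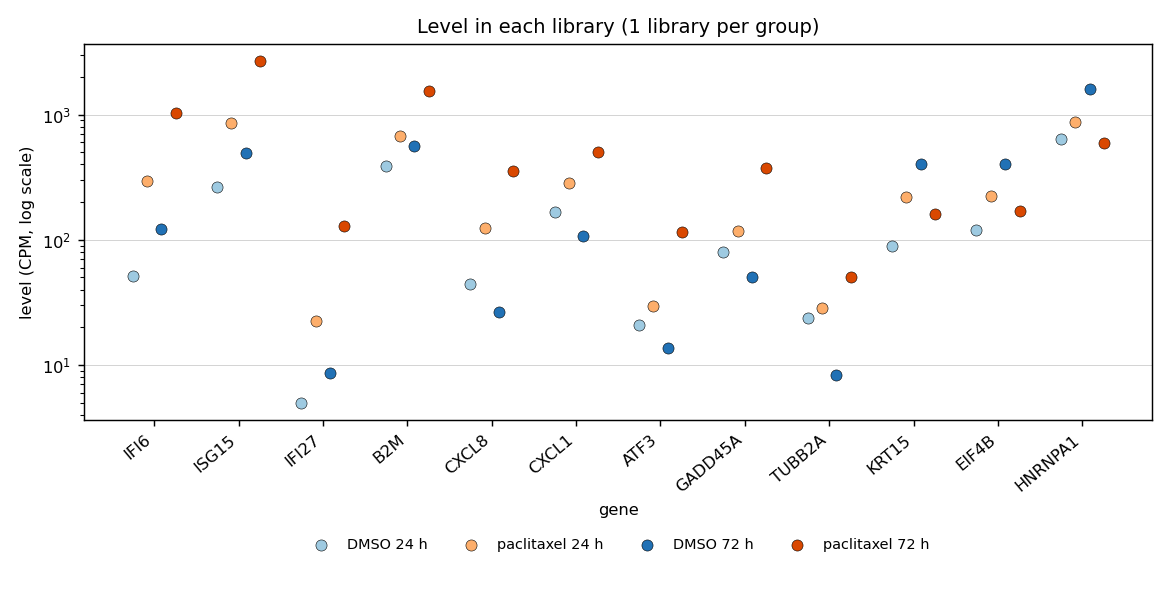
Level of 12 genes in CPM (vertical axis, log scale) in each of the 4 libraries, 1 point per library. The first 9 genes are highest in paclitaxel at 72 h, with ISG15 at 2678 CPM, and the last 3 (KRT15, EIF4B, HNRNPA1) are highest in DMSO at 72 h, with HNRNPA1 at 1591 CPM.

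Chemokines and cytokines, the secreted signals of inflammation, were higher in 12 of 16 tested cases and lower in 1, with a median of 2.23. At a mean of at least 50 CPM 4 of 6 were higher and 1 lower (median 1.03). Fewer members reach 10 CPM on other scales, and the median was 1.06 over 12 members with TMM factors and 1.18 over 12 members in cells called G1. CXCL8, which attracts neutrophils, was at 44.5, 125, 26.6 and 354 CPM over the 4 libraries, 13.3-fold higher at 72 h (12.4 to 14.3). CXCL1, a chemokine for the same receptor family, was at 166, 283, 107 and 502 CPM. In both genes the DMSO 72 h library was the lowest of the 4. CCL20, which attracts cells with the receptor CCR6, had the highest log2 ratio of any named gene, 5.23 (4.56 to 5.99), from 0.61 to 23.0 CPM. CCL5 (1.53 to 44.4 CPM, 4.85) and CXCL10 (2.28 to 39.4 CPM, 4.11), which attract T cells, followed. In DMSO at 24 h these 3 were between 0.56 and 1.04 CPM. They passed the minimum of 10 CPM only through their paclitaxel level at 72 h, which fixed their direction. TNF, the cytokine that drives NF-kB, was at 20.9, 38.8, 30.0 and 77.4 CPM. The mucosal chemokine CCL28 was the member that was lower, at 22.9, 98.8, 161 and 88.3 CPM, and IL18 (-0.06) and CX3CL1 (-0.08) were not called.

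Some of these ratios rest on very few cells. A single cell held 52.2% of the CCL20 UMIs of the paclitaxel library, and without the cell with the most UMIs in each library the log2 ratio of CCL20 was 4.25, at 0.58 and 11.0 CPM. For CXCL10 the top cell held 30.5% of the UMIs, for CCL5 23.0%, for IFIT2 21.8% and for CXCL8 19.2%, and 8 cells held 50% of all CXCL8 UMIs. CXCL8 was still seen in 54.9% of paclitaxel cells and 11.7% of DMSO cells once each cell was thinned to 20000 UMIs. Without thinning it was seen in 398 of 520 and 176 of 783 cells. By contrast the top cell held 1.85% of the IFI6 UMIs, 1.38% of those of B2M and 4.49% of those of ISG15, and 87, 109 and 79 cells held 50%. IFI6 was seen in 96.7% of thinned paclitaxel cells (94.7 to 98.1) and 61.1% of DMSO cells (57.5 to 64.6). The line is 1 cell type, so no share from cells that lack these genes can be set beside them.

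**Figure D3:**
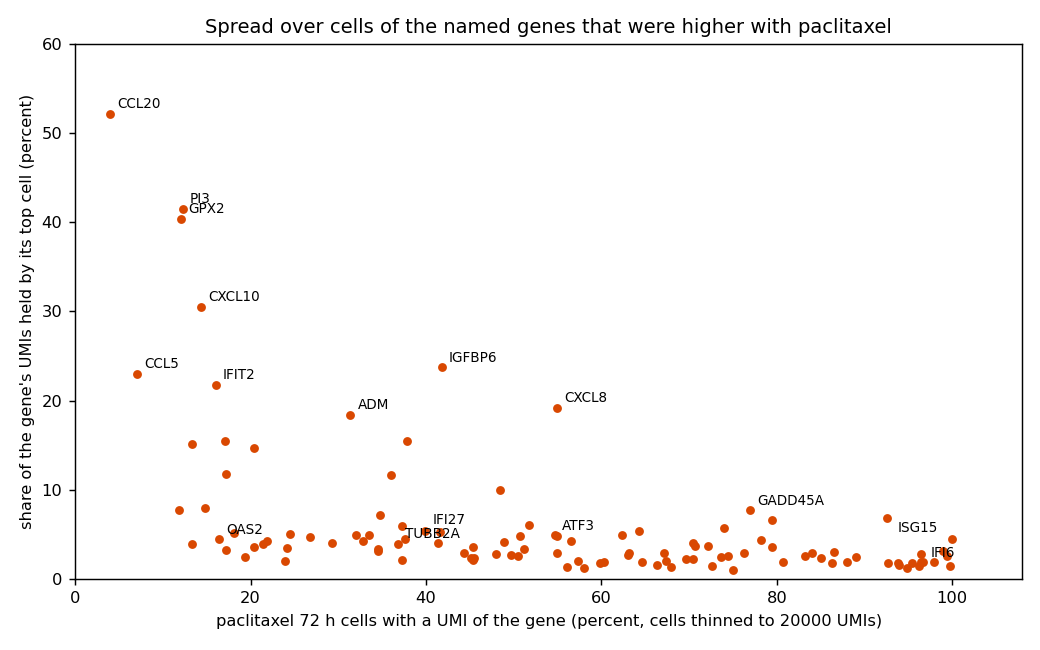
For each named gene that was higher with paclitaxel at 72 h, the share of paclitaxel cells with a UMI of it after thinning (horizontal axis, percent) and the share of its UMIs held by the cell with the most of them (vertical axis, percent). CCL20, at 52.2% in 1 cell, lies at the upper left, and IFI6, seen in 96.7% of cells, at the lower right.

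Genes of the NF-kB pathway and its feedback were higher in 11 of 20 cases and lower in 0, with a median of 0.61. TNFAIP3 (A20), a deubiquitinase that ends NF-kB signalling, was at 14.0, 16.9, 7.57 and 33.4 CPM over the 4 libraries. SOD2, the mitochondrial superoxide dismutase and a known NF-kB target, was at 85.5, 171, 138 and 374 CPM. The inhibitor NFKBIA was at 71.9, 113, 96.5 and 207 CPM and its relative NFKBIE at 14.7, 18.3, 14.4 and 32.1 CPM. Against DMSO at 24 h 12 of 20 were higher and 0 lower. Of the transcription factor subunits, NFKB2 (1.09) and RELB (0.70) were higher, while RELA (0.47), NFKB1 (0.20) and REL (-0.08) were not called. Acute phase and antimicrobial genes were higher in 7 of 8 cases with a median of 1.14, and at a mean of at least 50 CPM in 4 of 5 (0.87). SAA1, an acute phase apolipoprotein, was at 42.5, 110, 89.1 and 274 CPM and LCN2, which binds bacterial iron carriers, at 149, 240, 153 and 401 CPM. PI3, the elastase inhibitor elafin, went from 2.28 to 45.4 CPM, but 1 cell held 41.5% of its UMIs. It also passed the minimum level only through its paclitaxel level, which fixed its direction. SAA1 and SAA2 are near-identical, and the split of reads between them is uncertain.

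An NF-kB site was in the promoters of 7 of 11 chemokine genes and of 6 of 17 genes of the NF-kB list, beside 1.67% of all tested genes with a promoter and 1.65% of all promoters. Of the 130 tested genes with the site, 23.8% were higher and 2.31% lower, beside 11.5% and 6.90% of all genes with a promoter. With a TATA box 22.6% were higher and 6.68% lower. Across cells of 1 library the chemokine and NF-kB lists were only weakly related, with Spearman rho of 0.11 over 766 DMSO cells and 0.28 over 481 paclitaxel cells. The interferon and chemokine lists were at 0.11 and 0.14, and the interferon and MHC class I lists at 0.29 and 0.36. Cells of a library share their depth and capture, so these values describe the libraries.

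The integrated stress response is a program in which phosphorylated eIF2 raises translation of the factor ATF4, which then switches on genes of amino acid supply and of cell death. Of its genes 13 of 21 were higher and 0 lower, with a median of 0.85. ATF3, a stress-induced repressor, was at 20.9, 29.4, 13.7 and 116 CPM over the 4 libraries, 8.51-fold higher at 72 h (7.66 to 9.47). DDIT3 (CHOP), which favours cell death under lasting stress, was at 27.3, 33.1, 23.0 and 99.9 CPM. PPP1R15A, which directs the phosphatase that ends the response, was at 40.8, 43.4, 36.8 and 115 CPM, and ASNS, which makes asparagine, at 18.1, 30.6, 13.4 and 45.4 CPM. ATF4 itself was at 705 and 796 CPM and was not called.

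Amino acid supply moved in part. SLC3A2, the shared heavy chain of several amino acid transporters, was at 79.0, 96.5, 45.5 and 213 CPM, and 4 of 10 transporter genes were higher with 0 lower. SLC7A11, the cystine transporter chain, had a log2 ratio of 0.69, while SLC7A5, the leucine transporter chain, was at 49.2 and 55.4 CPM and was not called. Of 20 cytosolic tRNA synthetases 5 were higher, led by WARS (0.89) and GARS (0.81). With TMM factors 2 were higher and with the total of all genes 11, beside 9.07% and 25.2% of all genes tested. QARS, the glutamine enzyme, was the 1 that was lower, at 65.6, 119, 223 and 104 CPM over the 4 libraries, so that DMSO at 72 h stood above the other 3. The ATF4-C/EBP composite element (TGATGNAA, both strands) was in 5 of 12 synthetase promoters and 2 of 17 promoters of the stress response list, beside 1.49% of tested genes.

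Protein folding and turnover genes were higher as well, but from a low DMSO 72 h level. ER chaperone and unfolded protein response genes were higher in 10 of 25 cases and lower in 0 (median 0.40). HSPA5 (BiP), the main ER chaperone, was at 149, 160, 90.2 and 204 CPM, and HERPUD1, which serves the removal of misfolded ER proteins, at 28.5, 47.6, 31.5 and 86.8 CPM. The ER stress response element was in 6 of 22 promoters of the list, beside 0.13% of tested genes. Cytosolic heat shock proteins were higher in 9 of 17 cases and lower in 0 (median 0.59), with the small heat shock protein HSPB1 at 349, 329, 260 and 579 CPM. With TMM factors 5 of this list were higher, and without cells under 2% MT- UMIs 6 were higher with a median of 0.47. Those cells had a median of 69.2 heat shock UMIs per 10000, beside 41.6 in the other paclitaxel cells. Stress response UMIs were at 45.2 and 26.8 in the same cells, and interferon-stimulated UMIs at 49.2 and 82.4.

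The proteasome, which degrades ubiquitin-tagged proteins, had 15 of 31 subunits higher and 0 lower (median 0.57). PSMC4, a subunit of its ATPase ring, was at 88.8, 110, 53.6 and 128 CPM and PSMB6, a catalytic subunit, at 230, 229, 119 and 244 CPM. Over the 4 libraries the subunits together reached 5695, 5925, 3996 and 5400 CPM. Set against DMSO at 24 h its median was 0.13, with 2 subunits higher and 2 lower. In the same way the ER list had a median of 0.11 (4 of 24 higher, 4 lower) and the heat shock list 0.26 (4 of 17 higher, 2 lower) against DMSO at 24 h. Beside them 17.8% of all genes tested were higher and 10.8% lower. The interferon-stimulated list (median 2.35, 36 of 36 higher) and the stress response list (1.02, 12 of 21 higher) had larger medians in that comparison. The median of all genes tested there was 0.05.

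Among autophagy and lysosome genes 6 of 23 were higher and 0 lower, with MAP1LC3B, whose protein coats autophagosomes, at 56.9, 80.4, 48.1 and 169 CPM and the cargo receptor SQSTM1 at 450, 564, 491 and 910 CPM. Of NRF2-type antioxidant genes 11 of 21 were higher and 1 lower (median 0.68), but the higher ones were mostly scarce. At a mean of at least 50 CPM 3 of 12 were higher and 1 lower (median 0.07), and against DMSO at 24 h 5 of 21 were higher and 1 lower (median 0.37). The list summed to 19887, 19683, 20946 and 19635 CPM, and its median per cell was 202 UMIs per 10000 in DMSO and 179 in paclitaxel at 72 h. HMOX1, which breaks down heme, was at 6.99 and 26.9 CPM at 72 h and TXNRD1, which reduces thioredoxin, at 22.2 and 47.9 CPM. In DMSO at 24 h they were at 8.75 and 47.4 CPM, so the level of TXNRD1 there was about that of paclitaxel at 72 h. The glutathione peroxidase GPX2 went from 4.91 to 28.9 CPM with 40.4% of its UMIs in 1 cell. TKT, of the pentose phosphate pathway, was at 252, 406, 652 and 403 CPM, lower at 72 h.

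GADD45A, a growth arrest gene of several stress pathways, was at 80.2, 118, 50.6 and 377 CPM over the 4 libraries, 7.44-fold higher at 72 h (7.04 to 7.86). CDKN1A (p21), which inhibits cyclin-dependent kinases, was at 75.3, 73.9, 72.1 and 153 CPM.

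Cell death regulators were higher in 11 of 27 cases and lower in 1 (median 0.49). PMAIP1 (NOXA), which opposes MCL1, was at 47.5, 63.0, 46.3 and 198 CPM, so that the paclitaxel 72 h library stood apart from the other 3. Other BH3-only genes were higher by less, BCL2L11 (BIM) at 27.2, 32.4, 37.2 and 59.9 CPM and BBC3 (PUMA) at 11.0, 28.8, 33.7 and 52.0 CPM. BMF, also a BH3-only gene, was the 1 that was lower, at 19.2 and 6.75 CPM, but DMSO at 24 h had 4.94 CPM. MCL1, an anti-apoptotic member of the BCL2 family, was at 396 and 493 CPM and was not called. Immediate early and AP-1 genes were higher in 12 of 19 cases and lower in 2, and without cells under 2% MT- UMIs in 8 of 18 and 1. FOSL1 was at 90.1, 79.2, 31.8 and 89.3 CPM, while FOS (42.9 and 22.0 CPM at 72 h) and EGR1 (18.2 and 11.6 CPM) were lower.

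**Figure D4:**
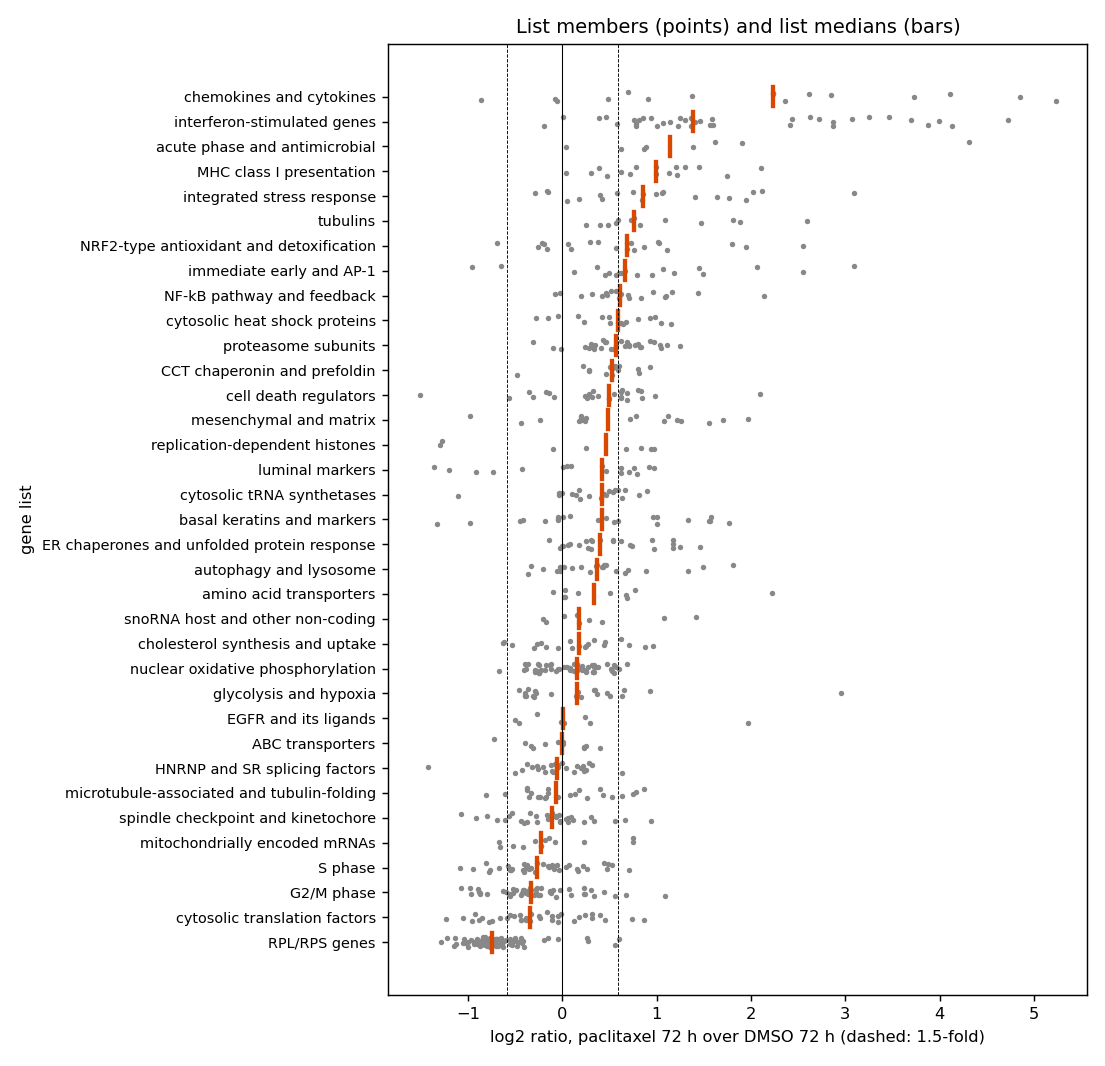
Log2 ratio of each tested member (points) of gene lists with 8 or more such members, with the list median as a bar and dashed lines at 1.5-fold. Medians run from 2.23 for chemokines and cytokines to -0.74 for RPL and RPS genes.

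Tubulins, the target of the drug, were higher in 9 of 13 cases and lower in 0, with a median of 0.76. The large ratios belonged to the scarcer isotypes. TUBB2A, a beta isotype abundant in neurons, was at 23.7, 28.5, 8.39 and 50.8 CPM over the 4 libraries, 6.06-fold higher at 72 h (5.28 to 6.97). TUBA4A was at 67.3, 68.5, 25.6 and 94.4 CPM and TUBA1A at 39.5, 86.7, 62.6 and 174 CPM. Of the abundant isotypes TUBB, at 871 and 1034 CPM (0.25), and TUBA1B, at 471 and 697 CPM (0.57), were not called, while TUBB4B (1.09) was higher. At a mean of at least 50 CPM 4 of 8 tubulins were higher and 0 lower (median 0.65). TUBB3, an isotype studied in taxane resistance, was at 3.51 and 12.5 CPM, under the minimum for a call. TUBB2A and TUBB2B, and the TUBA1 genes among themselves, are near-identical, so the split of reads is uncertain.

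The DMSO 72 h library was again the low one for tubulins. With TMM factors 6 members were called. The list summed to 2902, 2915, 1905 and 2828 CPM over the 4 libraries, and against DMSO at 24 h its median was 0.40 with 5 members higher. In cells called G1 at 72 h, which have low S and G2/M scores, all 13 tested members were higher, with a median of 0.96. A G1 cell held a median of 9.65 tubulin UMIs per 10000 in DMSO and 20.5 in paclitaxel, while G2/M cells held 27.7 and 33.1. Across cells the tubulin and G2/M lists, which share 1 gene, had a rho of 0.76 in DMSO and 0.50 in paclitaxel. CCT chaperonin and prefoldin genes, which fold new tubulin, were higher in 5 of 14 cases and lower in 0 (median 0.53), led by PFDN2 at 200 and 380 CPM. Of other tubulin-folding and microtubule-associated genes 4 of 25 were higher and 2 lower, shares near those of all genes (12.0% and 7.80%). Among the tubulin cofactors TBCE (0.87) and TBCC (0.75) were higher and TBCD (-0.81) was lower.

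Cell cycle genes were lower, by less. Of S phase genes 6 of 39 were lower and 1 higher (median -0.27), and of G2/M genes 10 of 52 were lower and 2 higher (median -0.34), beside 7.80% of all genes lower. MKI67, the proliferation marker, was at 223, 133, 117 and 59.9 CPM over the 4 libraries. CENPF, a kinetochore and nuclear matrix protein gene, was at 430, 328, 302 and 143 CPM, and TOP2A, the topoisomerase that untangles sister chromatids, at 250, 192, 185 and 101 CPM. In these 3 genes the paclitaxel library was below the DMSO library of its time. Each 72 h library was also below the 24 h library of the same treatment. HELLS (-0.95) and CDCA7 (-1.09), which act together on chromatin, led the S phase genes. The counts move with the scaling. With TMM factors 10 S phase and 14 G2/M genes were lower, and with the total of all genes 2 S phase genes were lower and 4 higher (median -0.02), and 7 G2/M genes lower and 5 higher (median -0.08), around the shift of 0.28 for all genes. The G2/M members that were higher were TUBB4B (1.09) and CKS2 (0.68).

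By the same lists 68.8% of 481 paclitaxel cells (64.5 to 72.9) were called G1 at 72 h, beside 56.3% of 766 DMSO cells (52.7 to 59.8). The intervals are over cells of 1 library and not over replicates. S phase calls were 5.82% and 10.1%, and G2/M calls 25.4% and 33.7%. In DMSO at 24 h 16.9% of 1080 cells had been called G1, so both 72 h libraries were well above that library. Median G2/M UMIs per 10000 were close over all cells, 27.0 in DMSO and 27.8 in paclitaxel. In cells called G2/M they were 79.1 and 73.5. The list median was 0.18 in G1 cells, where CENPE, a kinetochore motor, turned from -0.79 to 0.42. Low scores on these same genes define G1 cells, which bears on values within them.

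Spindle checkpoint and kinetochore genes, 5 of 33 lower and 2 higher, had a median of -0.12, nearer to that of all genes, which turned to 0.19 with the total of all genes. MAD1L1 was at 8.49 and 16.3 CPM, BUB1B, a checkpoint kinase gene, at 19.1 and 11.9 CPM, and BUB1 (-0.07) and MAD2L1 (0.06) were not called. Replication-dependent histones were split, with 4 of 8 higher and 2 lower, but in cells called G1 0 of 8 were higher and 2 lower (median 0.22). HIST1H4C was at 1513, 567, 789 and 326 CPM over the 4 libraries and HIST2H2AC had a log2 ratio of -1.29, while HIST1H2BD (0.97) and HIST2H2BE (0.83) were higher. Most histone mRNA has no poly(A) tail and is not captured, so these counts cover only the tailed part. The cell cycle homology region (TTTGAA, both strands) was in 30 of 42 promoters of G2/M genes, beside 8.91% of tested genes. An E2F site (TTTNNCGC) was in 14 of 29 promoters of S phase genes, beside 11.2%.

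Keratins and other epithelial genes changed unevenly. Of basal markers 9 of 22 were higher and 2 lower (median 0.42), and of luminal markers 7 of 17 were higher and 4 lower (median 0.42). Against DMSO at 24 h 12 of 22 basal markers were higher and 1 lower, and 15 of 16 luminal markers higher and 0 lower. The shares of all genes tested were 17.8% higher and 10.8% lower there. KRT17, a keratin of basal and injured epithelium, was at 964, 1117, 666 and 2262 CPM over the 4 libraries, and KRT14 at 542, 591, 431 and 1081 CPM. KRT16 (1.56) and KRT6A (1.57), keratins of wounded skin, were higher, and KRT5 (0.46) was not called. ITGB4, the integrin subunit of hemidesmosomes, was lower, at 205, 196, 266 and 135 CPM. KRT75 (1.09 to 25.0 CPM) and the cornified envelope gene SPRR2D (0.92 to 19.3 CPM) were among the largest ratios below 50 CPM. Both passed the minimum level only through their paclitaxel level at 72 h, which fixed their direction. The luminal keratins KRT8 (449, 610, 459 and 896 CPM) and KRT18 (780, 1166, 772 and 1304 CPM), whose genes overlap, were higher, as was the adhesion protein gene EPCAM (345, 458, 281 and 486 CPM). Of the other luminal markers named at the start, CLDN4 had a log2 ratio of 0.91. KRT19 (0.01), KRT7 (0.42), ELF3 (0.05), CDH1 (-0.15) and MUC1 (-0.43) differed by less than 1.5-fold. Keratins of 1 type are close in sequence, so their split of reads is uncertain.

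KRT15, a keratin of basal progenitors, went the other way, at 89.1, 218, 400 and 160 CPM over the 4 libraries. The mucin MUC16 (13.1, 44.5, 97.8 and 38.1 CPM) and VTCN1, which encodes the T cell inhibitor B7-H4 (5.31, 27.4, 52.8 and 22.9 CPM), had the same order. In all 3 the DMSO 72 h library was the highest and DMSO 24 h the lowest, so these genes were lower with paclitaxel than with DMSO at 72 h and higher than in DMSO at 24 h. Mesenchymal and matrix genes were higher in 9 of 18 cases and lower in 1. PLAUR, the urokinase receptor, was at 126, 190, 120 and 391 CPM and TIMP1, a metalloprotease inhibitor, at 105, 173, 121 and 283 CPM. TAGLN, an actin-binding protein of contractile cells, was at 13.9 and 54.5 CPM at 72 h but at 80.6 CPM in DMSO at 24 h. VIM was at 3142 and 2672 CPM and was not called. Among EGFR ligands AREG, amphiregulin, was at 34.6, 74.7, 25.0 and 97.8 CPM, and EGFR itself (-0.27) was not called.

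The translation machinery was the main group that was lower. Of RPL and RPS genes, on the scale of the other genes, 64 of 83 were lower and 1 was higher, with a median of -0.74, for example RPL3 at 11273 and 4620 CPM. RPS27L, a paralog of RPS27, was the 1 that was higher, at 305 and 462 CPM. Many RPL and RPS genes have processed copies, so single members are uncertain. Cytosolic translation factors were lower in 10 of 36 cases and higher in 2 (median -0.34). With the total of all genes, which includes RPL and RPS genes, 6 were lower and 4 higher (median -0.08). EIF4B, a helper of the mRNA-unwinding helicase, was at 120, 225, 400 and 170 CPM over the 4 libraries. EEF1A1, which carries tRNA to the ribosome, was at 5013, 7599, 12554 and 6785 CPM, and the initiation factor subunit gene EIF3L at 226, 412, 763 and 368 CPM. The 2 members that were higher, EIF5 (0.87) and EIF2S1 (0.74), serve start codon selection and delivery of the initiator tRNA.

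For these genes too DMSO at 72 h was the library apart. Against DMSO at 24 h, 12 translation factors were higher with paclitaxel at 72 h and 4 lower, and EIF4B, EIF3L and EIF3F had log2 ratios of 0.50, 0.70 and 0.60. The summed level of the list was 31193, 42812, 58465 and 39484 CPM over the 4 libraries. Per cell, 38.5% of paclitaxel cells lay below the 5th percentile of DMSO 72 h cells for this list, and 53.2% for the RPL and RPS share of UMIs. The translation factor level and the RPL and RPS share went together across cells, with a rho of 0.86 in DMSO and 0.85 in paclitaxel. They did not share genes, but both are shares of the same cell's UMIs.

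mRNAs of this class are known for a pyrimidine tract at their first bases, through which growth signalling sets their translation. A C at the start base followed by 4 pyrimidines was found in 14 of 26 translation factor promoters and 43 of 67 RPL and RPS promoters, beside 5.41% of tested genes outside the RPL and RPS class. Of the 420 such genes 5.48% were higher and 12.1% lower, beside 11.5% and 6.90% of all with a promoter. In the stretches shown the capitals mark the start base and the 4 pyrimidines after it.
EIF4B (chr12:53006436-53006475, plus strand): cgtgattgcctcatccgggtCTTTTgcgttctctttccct
EIF3F (chr11:7987317-7987356, plus strand): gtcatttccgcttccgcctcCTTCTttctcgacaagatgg
EEF1A1 (chr6:73521013-73521052, minus strand): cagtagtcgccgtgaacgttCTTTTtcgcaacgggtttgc

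**Figure D5:**
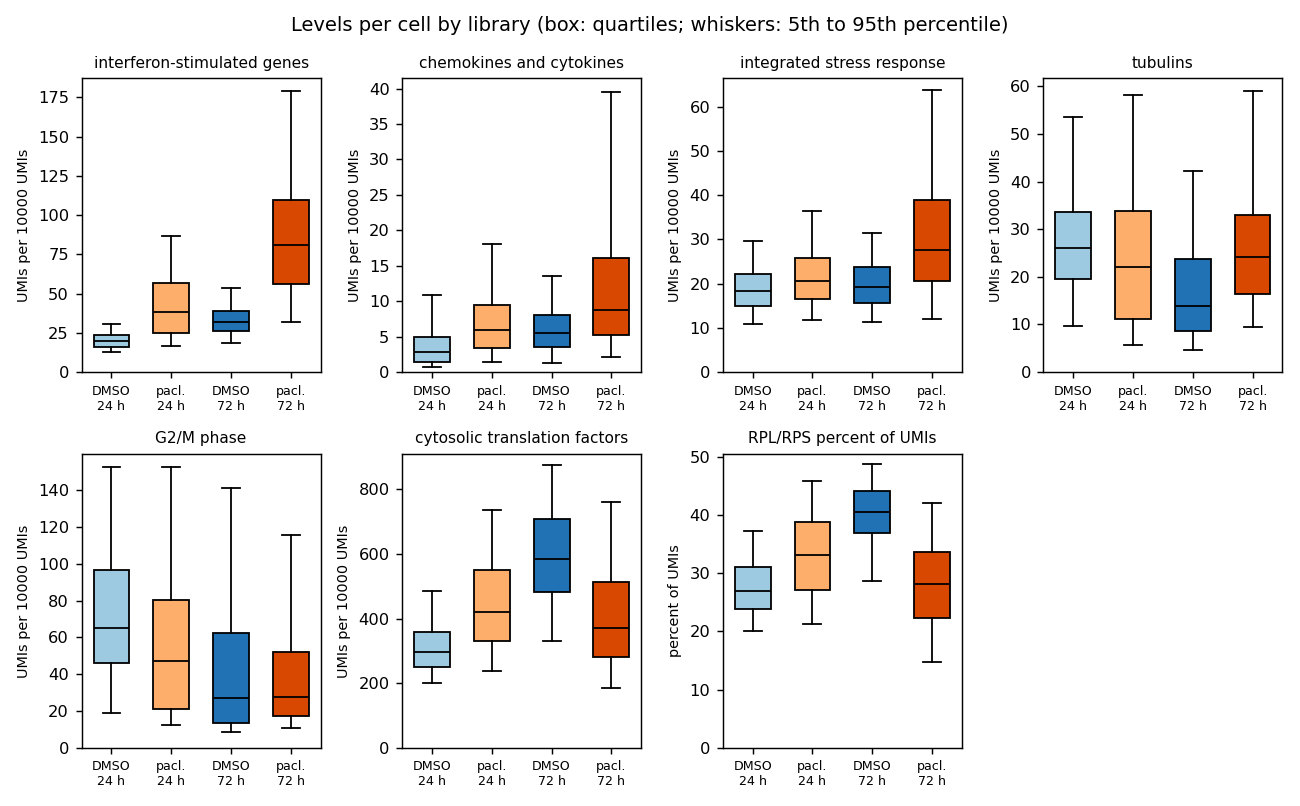
Level of 6 gene lists per cell (UMIs per 10000 UMIs of genes other than RPL and RPS genes) and the RPL and RPS share (percent of UMIs) in the 4 libraries, in cells thinned to 20000 UMIs, with boxes for the quartiles and whiskers from the 5th to the 95th percentile. The median of interferon-stimulated genes is 80.9 in paclitaxel at 72 h and 32.1 in DMSO at 72 h, and the RPL and RPS median is 28.1% and 40.5%.

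Levels per cell show how widely each list differed. Of the 481 thinned paclitaxel cells 77.1% (73.1 to 80.8) lay above the 95th percentile of DMSO 72 h cells for interferon-stimulated genes, and 55.9% (51.4 to 60.4) for MHC class I genes. For the stress response list the share was 37.4%, for chemokines 29.9% and for tubulins 11.6%. Shares like that of chemokines were found for autophagy and lysosome genes (31.8%), basal markers (30.4%) and proteasome subunits (28.3%). For the MT- share of UMIs it was 13.3%, for UMIs per cell 10.8% and for S phase genes 2.70%. Above the DMSO 72 h median lay 83.0% of paclitaxel cells for tubulins and 55.9% for UMIs per cell. In cells called G1, interferon-stimulated UMIs per 10000 were at a median of 34.1 in DMSO and 85.8 in paclitaxel, and in cells called G2/M at 30.2 and 71.7. The interferon difference was thus present in both phase classes.

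Other metabolic lists stayed near the median of all genes. Nuclear oxidative phosphorylation genes had a median of 0.15, with 2 of 57 higher and 1 lower. With the total of all genes 15 were higher and 0 lower (median 0.41), around the shift of 0.28. Mitochondrially encoded mRNAs had a median of -0.23, with 2 of 13 higher and 2 lower. MT-CO3 was at 21767 and 13695 CPM, whereas MT-ND4L (0.75) and MT-ATP8 (0.74), each overlapping a neighbour, were higher. Glycolysis and hypoxia genes were higher in 4 of 24 cases, near the 12.0% of all genes, and at a mean of at least 50 CPM in 0 of 14. ADM, the vessel-relaxing peptide adrenomedullin, was at 8.22 and 63.5 CPM with 18.4% of its UMIs in 1 cell. Cholesterol genes were higher in 4 of 21 cases and lower in 2, also near the shares of all genes. Metallothioneins had 0 of 5 called in either direction, at 1.5-fold, with log2 ratios from -0.21 to 0.17. ABC transporters, which include drug pumps, had 0 of 13 higher and 1 lower, ABCA2 at 23.0 and 13.9 CPM. Of splicing factors of the HNRNP and SR families 1 of 28 was higher and 1 lower, HNRNPA1 at 634, 865, 1591 and 591 CPM, a gene with many processed copies.

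Genes outside the lists were also among those with the most negative ratios. LINC01297.1, a non-coding transcript, had the lowest log2 ratio, -2.30 (-2.37 to -2.23), at 210, 226, 379 and 76.9 CPM over the 4 libraries. It was seen in 84.3% of thinned DMSO cells and 28.9% of paclitaxel cells. ZNF90, a zinc finger gene, followed at -1.60, from 925 to 306 CPM, with 216 CPM in DMSO at 24 h. KIAA0101, a partner of the replication clamp PCNA, was at 567, 403, 596 and 238 CPM. PIF1, a DNA helicase gene, was at 98.2, 56.0, 56.7 and 17.2 CPM. By chromosome, the medians of the log2 ratio lay between -0.08 (chromosome 22) and 0.15 (chromosome 6). Of 481 genes on chromosome 6 18.9% were higher and 2.29% lower, beside 12.0% and 7.80% of all genes tested. The part of the MHC class I and tubulin genes on that chromosome in these shares was not tested.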

How the data were processed

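The deposited tables give raw UMI counts per gene symbol and cell barcode, 1 table per library, with no normalization. Cell Ranger 2.0 and GRCh38 are named per the submitters' processing notes. Counting strand and cell selection are not given in the sources used here. Barcodes with under 20% MT- UMIs were kept, counts were summed per library and scaled to CPM without 84 RPL and RPS genes. The summed totals at 72 h were 49228982 (DMSO) and 34850724 (paclitaxel) UMIs.

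Ratios and shares of cells have 95% Clopper-Pearson intervals, those of shares being over the cells of 1 library. Per-cell levels and phases (scanpy 1.11.5) used cells thinned to 20000 UMIs, which left out 17 DMSO and 39 paclitaxel cells at 72 h. Scrublet marked 11 and 4 doublets there, and these cells were kept. TMM factors are from edgeR 4.0.16. Code was tested on simulated data. Promoters of 7767 of 9595 tested genes matched RefSeq (GRCh38.p14) by symbol, the first listed start being used. Gene coordinates are from GENCODE on GRCh38.

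Named genes were the 15 highest and 15 lowest log2 ratios at 50 CPM or more, the 8 highest and 8 lowest from 10 to 50 CPM (without MT-, RPL and RPS genes), up to 4 per list, and a fixed set. The text adds other list members, chosen after their values were seen. The 36 lists and these rules were chosen with earlier results of these data known. Alternatives tried were other totals, TMM, per-cell means, thinning, cell filters, level minimums, a 2-fold limit and DMSO 24 h as the control. Some listed genes and 1 list are not reported here.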

Additional observations from a re-analysis of the deposited data

Results flagged for a closer look

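In 15 named genes the paclitaxel library was at least 1.5-fold below the DMSO library at 72 h but at least 1.5-fold above it at 24 h. The difference between the 2 time points was not tested, since each group is 1 library. The log2 ratio at 72 h was -1.36 for MUC16, -1.33 for KRT15, -1.24 for FAM150B, -1.23 for EIF4B, -1.11 for SLC25A6, -1.55 for PLEKHS1, -1.51 for BMF and -1.50 for APCDD1. It was -1.32 for ITGA9, -1.11 for QARS, -1.21 for VTCN1, -0.92 for PROM1, -1.05 for EIF3L, -0.96 for EIF3F and -0.73 for ABCA2. At 24 h the same genes had log2 ratios between 0.59 (BMF) and 2.37 (VTCN1).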

How the results depend on the processing

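The 72 h comparison called 1163 genes higher and 755 lower, which became 2091 and 177 with the total of all genes, and with TMM factors 752 were higher. At a mean of at least 50 CPM they were 466 and 282, at a mean of at least 1 CPM 2306 and 1283, and at 2-fold 361 and 84. By construction a higher level minimum and a 2-fold limit pass fewer genes. For the other moved counts the cause was not tested. Under the remaining settings run the 2 counts lay between 1040 and 1691 and between 688 and 1020.

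The counts of several lists moved with the total of all genes and TMM factors, given in that order. Cell death genes called higher were 15 and 7 beside 11, immediate early genes 14 and 7 beside 12, and chaperonin genes 10 and 3 beside 5. Proteasome subunits were 25 and 13 beside 15, and autophagy genes 13 with the former beside 6. Of all genes tested 25.2% and 9.07% were called higher, beside 12.0%. Fewer members of some lists were tested in these settings.

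Of 158 named genes called, 149 to 158 stayed past 1.5-fold under each setting other than DMSO 24 h as the control, which left 99 and turned 22. With that control the log2 ratio was 0.50 for ZNF90, 1.54 for MUC16, 0.84 for KRT15, 0.50 for EIF4B, 0.80 for NACA2, 0.71 for NHSL2, 0.50 for SLC25A6, 0.40 for PLEKHS1, 0.45 for BMF, 0.40 for ITGA9 and 0.52 for PABPC3. It was 0.66 for QARS, -0.014 for FOSL1, -0.069 for TUBB4B, 2.11 for VTCN1, 1.21 for PROM1, -0.56 for TAGLN, 0.70 for EIF3L, 0.60 for EIF3F, -0.049 for SDHB, 0.31 for ATP5G2 and 0.15 for ABCA2. In cells called G1 CENPE turned to 0.42. The setting without the top cell of each gene was chosen after seeing the data and turned no named gene.

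No paired analysis was possible because each group is 1 library. With 1 library a side, depth sets the counting intervals only, and differences between cultures or captures cannot be told apart from the treatment.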
